A study of Homo sapiens with 5 samples.

Results

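Chemokines are small secreted proteins and chemokine receptors are the membrane proteins that bind them. A list of 53 such genes, chosen by symbol, was followed in NCI-H209 cells: 32 ligands and 21 receptors, of 64837 entries in the count files. All 53 were matched to a gene identifier, and 19 of them, 15 ligands and 4 receptors, had enough reads to be tested among 20360 genes. NCI-H209 is an established human SCLC (small-cell lung cancer) line, and HBMECs are human brain microvascular endothelial cells. The control group was 3 libraries of parental NCI-H209 cells grown alone and labelled untreated, and the co-cultured group was 2 libraries of NCI-H209 cells kept for 24 h below a Transwell insert carrying HBMECs. The membrane let medium pass between the chambers and kept the cells apart. Both cell types grew in RPMI medium with fetal bovine serum, and the HBMEC medium also held Nu-serum. The methods describe no control well with an empty insert, so the presence of HBMECs, the insert and the medium carried with them cannot be told apart.

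Rather than single cells, RNA of whole cultures was sequenced, so fewer cells of a kind and less RNA per cell cannot be told apart in any value below. The directional libraries held 15457071 to 19157348 counts on genes. CPM stands for counts per 1000000 counts on genes after scaling between libraries. A count of 3, taken as the floor below which a gene is not read, equalled 0.157 to 0.194 CPM, and this floor covers counting error alone. Reads that did not map were 8.13% to 8.48% of the total in control but 15.9% and 16.8% in co-culture. The labels do not say that the libraries of a group came from separate cultures, so p-values measure the spread between these libraries, which may be technical. Neuroendocrine genes marked the cells as the SCLC line in both groups: SYP stood at 59.4 ± 4.98 CPM (SD, n = 3) without and 88.1 ± 2.85 CPM (SD, n = 2) with HBMECs. The marker CHGA, however, held 0, 0 and 0 control counts and 1 and 0 co-cultured counts, so a gene listed at 0 is not shown to be silent. Control replicate 1 differed from the other control libraries: its chi-square per degree of freedom against them over genes was 17.3 and 17.6, and that of replicates 2 and 3 was 6.22.

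Ligands are grouped by the spacing of their first cysteines into CXC, CC, C and CX3C families, and they guide migrating cells by binding G protein-coupled receptors. CXC ligands with the ELR motif attract neutrophils and promote blood vessel growth through CXCR1 and CXCR2, while CXCL12 acts on CXCR4 and guides stem cells, neurons and many tumor cells. Atypical receptors such as ACKR2 and ACKR3 bind ligands without classical G protein signaling and remove or store them.

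With HBMECs, most of the 19 chemokine and receptor genes with enough reads to be tested were upregulated. By edgeR's quasi-likelihood test at an adjusted p under 0.05, 14 of the 19 tested genes were higher (10 ligands and 4 receptors), 1 ligand (CXCL14) was lower, and 4 ligands (CCL28, CXCL16, CXCL12 and XCL1) had no call. Among all 20360 tested genes 18.4% were called higher, 15.0% lower and 33.4% in either direction. The log2 fold changes of the 14 genes ran from 0.70 to 3.87. The median over the 19 tested genes was 1.84 (2.28 for ligands and 1.56 for receptors), beside -0.03 over all genes tested. These medians leave out the 34 untested genes, and 3 of the tested ones (CXCL5, CXCL10 and CCL28) reached the filter's minimum in fewer than 2 of the control libraries, so they were tested only because they were high in co-culture. The study's criterion for DEGs (differentially expressed genes) was a fold change of more than 1 in size at a p below 0.05. It was read here as a log2 fold change and an unadjusted edgeR p. By this reading 12 of the 19 were higher and 1 was lower, against 5.44% and 5.01% of all genes. For 17 genes every co-cultured library lay above every control library, and for CXCL14 every one lay below. Such separation upward was met in 29.4% of all genes. The 53 genes together held 1757 to 2326 counts in a control library and 4993 to 6824 in a co-cultured one.

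**Figure D1:**
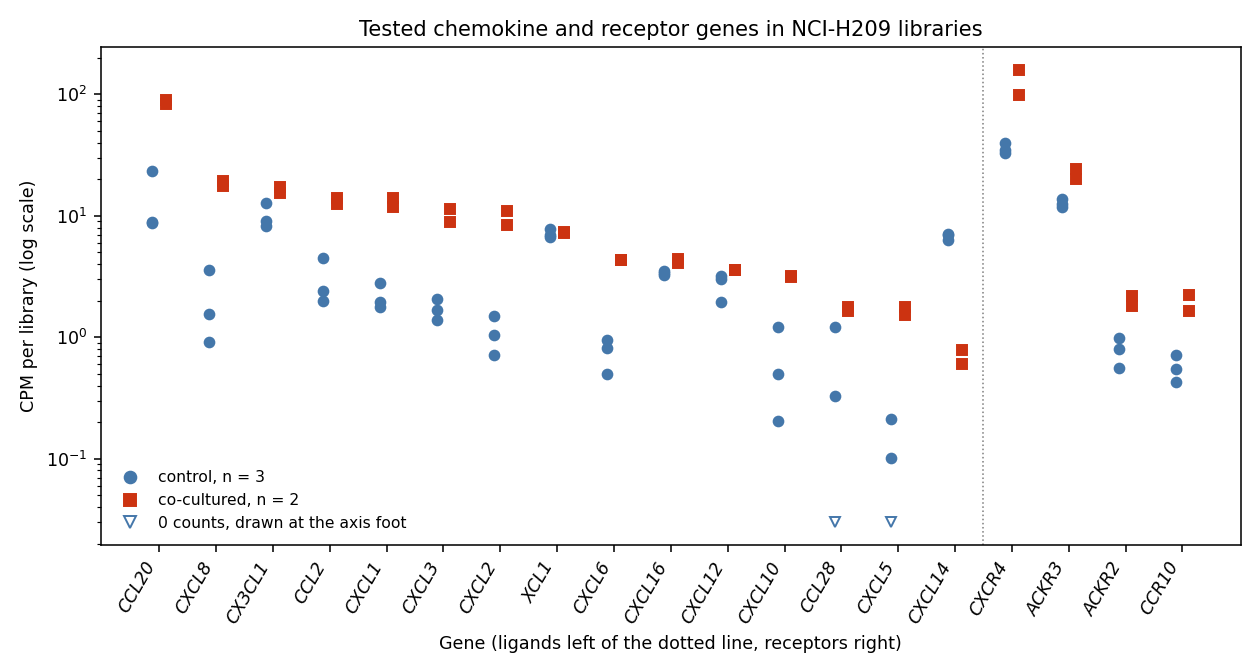
CPM of the 19 tested genes in each library, on a log axis, with ligands on the left and receptors on the right. Circles are the 3 control libraries and squares the 2 co-cultured ones, and an open triangle marks a library with 0 counts. The squares lie above the circles for 17 genes, below them for CXCL14, and among them for XCL1.

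The ELR ligands form a compact block on the long arm of chromosome 4. In GRCh38, from 73740506 to 74099293, a stretch of 358.8 kb holds CXCL8, CXCL6, CXCL1, CXCL5, CXCL3 and CXCL2 in that order. All 6 were upregulated, by 5.62- to 14.7-fold. CXCL8 (interleukin-8, plus strand, 73740506 to 73743716) is the best known neutrophil attractant of the family. It stood at 3.61, 1.55 and 0.920 CPM in control and at 17.5 and 19.5 CPM in co-culture. The lowest co-cultured library therefore lay far above the highest control library. The change was 9.10-fold, a log2 fold change of 3.19 (SE 0.37, edgeR adjusted p = 0.000317), and 3.91 without control replicate 1, the highest of the controls.

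CXCL1, CXCL2 and CXCL3, once named the GRO genes, act on the same receptor. CXCL1 (plus strand, 73869393 to 73871242) stood at 2.81, 1.77 and 1.94 CPM in control and 11.8 and 14.1 CPM in co-culture. Its log2 fold change was 2.56 (SE 0.21, edgeR adjusted p = 7.9e-05). CXCL2 (minus strand, 74097035 to 74099293) stood at 1.49, 1.05 and 0.716 CPM in control and 8.35 and 10.9 CPM in co-culture. The groups lay apart for both genes, and the log2 fold change of CXCL2 was 3.15 (SE 0.27, edgeR adjusted p = 9.32e-05). CXCL3 (minus strand, 74036589 to 74038807) stood at 2.07, 1.38 and 1.69 CPM in control and 8.84 and 11.4 CPM in co-culture, a log2 fold change of 2.55 (SE 0.22, edgeR adjusted p = 9.32e-05). The coding sequences of these genes share 90.8% to 94.4% of their bases, so reads from stretches where they are identical map to more than 1 place and were not counted.

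CXCL5 and CXCL6 are the remaining ELR genes of the stretch. CXCL5 (minus strand, 73995642 to 73998779) was close to the floor in control, with 4, 0 and 2 counts, and had 28 and 27 counts in co-culture. Its log2 fold change of 3.87 (SE 0.61, edgeR adjusted p = 0.00153) was the highest of the 19, rests on those 6 control counts, and was 4.79 without control replicate 1. CXCL6 (plus strand, 73836497 to 73849064) held 18, 9 and 16 control counts and 79 and 65 co-cultured counts. The mean was 0.757 ± 0.235 CPM without HBMECs (SD, n = 3) and 4.30 ± 0.0171 CPM with them (SD, n = 2), and the log2 fold change was 2.49 (SE 0.29, edgeR adjusted p = 0.000333). The coding sequences of the pair share 87.5% of their bases. None of the 10 other genes of the stretch, among them the platelet chemokine genes PF4, PF4V1 and PPBP, had enough reads to be tested.

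**Figure D2:**
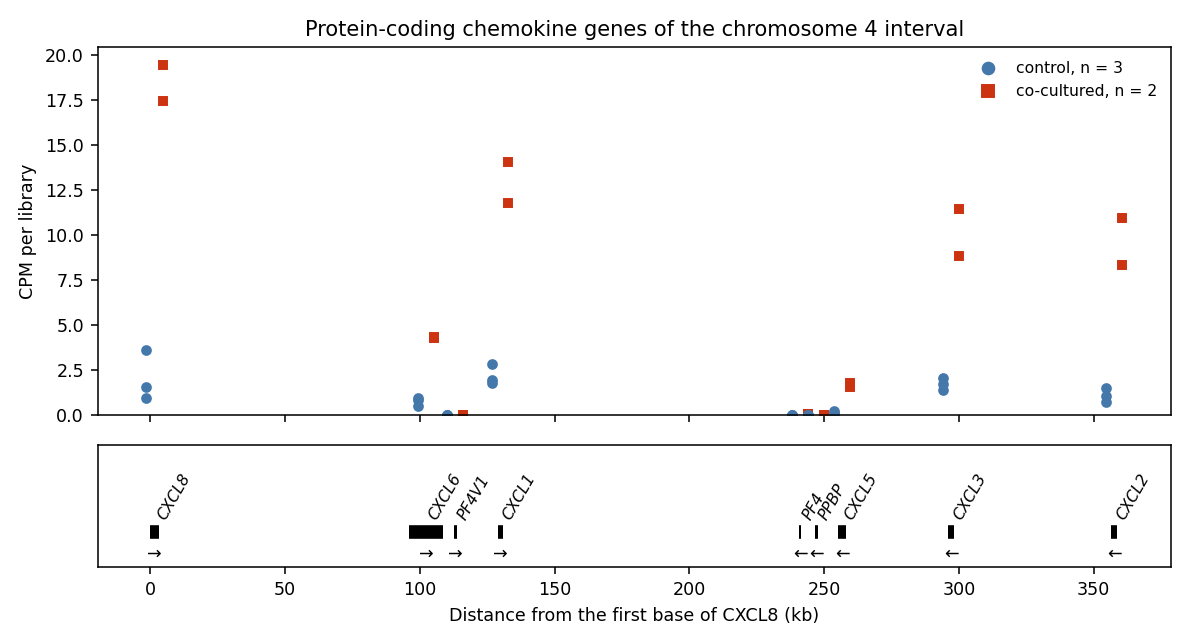
CPM per library (upper panel, linear axis from 0) and gene position with the direction of transcription (lower panel, distance in kb from the start of CXCL8) for the protein-coding chemokine genes of the chromosome 4 stretch. Circles are the 3 control and squares the 2 co-cultured libraries. Squares lie above circles at CXCL8, CXCL6, CXCL1, CXCL5, CXCL3 and CXCL2, while PF4, PF4V1 and PPBP lie at or near 0.

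The DNA upstream of these genes is shown because they lie side by side and were all upregulated, and that of CCL20 because it was the most abundant ligand. Each line gives the 250 bases before the RefSeq start of the gene in GRCh38.p14, 5′ to 3′ on the gene's own strand, from chr4:73740319-73740568 (plus strand) for CXCL8, chr4:73869143-73869392 (plus strand) for CXCL1, chr4:74099196-74099445 (minus strand) for CXCL2, chr4:74038690-74038939 (minus strand) for CXCL3, chr4:73998678-73998927 (minus strand) for CXCL5, chr4:73836428-73836677 (plus strand) for CXCL6 and chr2:227813592-227813841 (plus strand) for CCL20. Capitals mark letters that match the NF-kB consensus or the shorter motif GGNNNTTCC on either strand, NF-kB being the transcription factor that many inflammatory genes respond to.
CXCL8: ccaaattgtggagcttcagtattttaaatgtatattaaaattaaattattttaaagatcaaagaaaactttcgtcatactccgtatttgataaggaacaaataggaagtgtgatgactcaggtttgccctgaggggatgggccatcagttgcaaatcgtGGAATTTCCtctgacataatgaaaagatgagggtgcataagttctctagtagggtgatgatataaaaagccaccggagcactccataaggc
CXCL1: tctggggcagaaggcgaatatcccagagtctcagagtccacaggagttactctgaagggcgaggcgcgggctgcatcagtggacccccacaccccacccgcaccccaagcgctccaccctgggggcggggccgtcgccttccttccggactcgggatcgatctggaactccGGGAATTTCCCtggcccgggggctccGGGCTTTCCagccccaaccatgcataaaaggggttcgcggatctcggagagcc
CXCL2: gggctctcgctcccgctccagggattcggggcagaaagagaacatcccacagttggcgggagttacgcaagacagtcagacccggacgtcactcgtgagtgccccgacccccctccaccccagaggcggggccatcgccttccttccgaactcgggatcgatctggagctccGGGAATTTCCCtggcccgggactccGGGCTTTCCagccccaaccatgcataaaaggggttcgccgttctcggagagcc
CXCL3: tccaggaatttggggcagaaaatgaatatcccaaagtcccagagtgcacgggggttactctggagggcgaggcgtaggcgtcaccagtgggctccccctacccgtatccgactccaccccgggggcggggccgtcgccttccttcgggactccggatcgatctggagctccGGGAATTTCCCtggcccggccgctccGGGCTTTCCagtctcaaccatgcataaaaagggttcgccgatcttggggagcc
CXCL5: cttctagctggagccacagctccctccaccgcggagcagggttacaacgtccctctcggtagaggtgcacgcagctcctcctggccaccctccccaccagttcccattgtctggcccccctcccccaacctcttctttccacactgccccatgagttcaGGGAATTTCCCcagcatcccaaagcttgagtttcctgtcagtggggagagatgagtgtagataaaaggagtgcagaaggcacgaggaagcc
CXCL6: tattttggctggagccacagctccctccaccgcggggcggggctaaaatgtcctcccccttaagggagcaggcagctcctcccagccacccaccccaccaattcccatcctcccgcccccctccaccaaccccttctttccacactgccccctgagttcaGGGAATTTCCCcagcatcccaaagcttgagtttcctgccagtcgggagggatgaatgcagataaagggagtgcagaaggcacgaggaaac
CCL20: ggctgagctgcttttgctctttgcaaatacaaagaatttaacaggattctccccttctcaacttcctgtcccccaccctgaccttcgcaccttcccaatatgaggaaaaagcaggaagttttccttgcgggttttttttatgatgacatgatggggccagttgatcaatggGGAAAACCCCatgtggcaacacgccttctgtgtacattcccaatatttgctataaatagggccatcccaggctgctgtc

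Capitals stood close to the start in each of the 7 sequences. Counted back from the base just before the start (-1), CXCL8 held its match at -91 to -83. CXCL1 and CXCL3 each held one at -79 to -69 and another at -53 to -45, and CXCL2 held them at -78 to -68 and -53 to -45. The match was at -91 to -81 in CXCL5, at -90 to -80 in CXCL6 and at -79 to -70 in CCL20. Upstream identity over the 250 bases was 85.3% between CXCL5 and CXCL6, 70.1% to 81.4% among CXCL1, CXCL2 and CXCL3, and 44.3% between CXCL8 and CXCL1.

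A window of 300 bases, 250 before and 50 after the start, was available for 38 of the 53 genes and for 12 of the 19 tested ones. Of the 9 genes called higher that had a window, 7 held the NF-kB consensus and 9 held GGNNNTTCC. Among the 26 untested genes with a window these counts were 3 and 4, and over all 27305 genes with a window the shares were 13.3% and 23.5%. A gene with several windows, such as CXCR4, was counted once, if any of them held the motif. A consensus match can contain the shorter motif, so both counts overlap, and the shorter one was chosen after the sequences had been seen. The windows of CXCL14, CXCL12 and CCL28 held neither. The hypoxia response core (ACGTG or GCGTG, both strands) was found in 4 of the 9 genes and in 52.4% of all genes, and the AP-1 motif TGANTCA, also chosen later, was found in 1 of the 9 (CXCL8) and in 9.37% of all. A match of letters is a description and no measurement of binding, and the related sequences of chromosome 4 are not independent of each other.

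Among the CC ligands, CCL20 and CCL2 were upregulated. CCL20 (chromosome 2, 227805739 to 227817564, plus strand) attracts lymphocytes and dendritic cells through CCR6. It stood at 23.5, 8.78 and 8.95 CPM in control and at 83.7 and 90.5 CPM in co-culture. Control replicate 1 was the highest of the controls and still lay well below both co-cultured libraries. The change was 6.34-fold, a log2 fold change of 2.66 (SE 0.33, edgeR adjusted p = 0.000503), and 3.30 without control replicate 1. Per kb of exon, CCL20 moved from 8.61 to 54.6 CPM, the highest of the ligands in either group.

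CCL2 (chromosome 17, 34255218 to 34257203, plus strand), the classical monocyte attractant, had the same order of libraries. Its level was 4.46, 1.99 and 2.40 CPM in control and 12.5 and 14.1 CPM in co-culture. The log2 fold change was 2.16 (SE 0.28, edgeR adjusted p = 0.000569). CCL28, a ligand of mucosal surfaces that acts on CCR10, held 23, 6 and 0 control counts and 30 and 27 co-cultured counts. Both co-cultured libraries lay above the controls, the controls ran from 0 to 1.22 CPM, and no call was made (log2 fold change 1.72, SE 0.78, 95% interval -0.03 to 3.46, edgeR adjusted p = 0.119). Without control replicate 1 the value was 3.36 (edgeR adjusted p = 0.000322), and with a filter of at least 1 count in any library the fold stayed and the call was made (adjusted p = 0.00021). The other 9 alternatives made no call, among them 1.12 without control replicate 3 (adjusted p = 0.137), 1.20 with the replicate number as a block (0.0886) and DESeq2 (0.510).

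CXCL10 and CX3CL1 were also upregulated, with calls that depended on single libraries. CXCL10, an interferon-induced attractant of T cells, held 23, 9 and 4 control counts and 57 and 48 co-cultured counts. The groups lay apart, and its log2 fold change was 2.28 (SE 0.48, edgeR adjusted p = 0.00647). The call was lost without co-cultured replicate 1 (adjusted p = 0.0592) or 2 (adjusted p = 0.0540), and the value was 3.16 without control replicate 1. CX3CL1 (fractalkine), which is anchored in the membrane and released by proteases, stood at 12.7, 9.11 and 8.28 CPM in control and at 15.4 and 17.3 CPM in co-culture. Its change of 1.62-fold was the smallest called (log2 fold change 0.70, SE 0.18, edgeR adjusted p = 0.0174). It was not called without co-cultured replicate 1 (adjusted p = 0.0722) or 2 (0.140), or without control replicate 2 (0.0532).

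CXCL14 was the ligand that fell. It is a CXC chemokine of normal epithelia that lacks the ELR motif, and its gene lies on chromosome 5 (135570679 to 135579279, minus strand). The control libraries held 118, 125 and 138 counts and the co-cultured ones 11 and 12. Each group was narrow and far from the other, at 6.74 ± 0.419 CPM without HBMECs (SD, n = 3) and 0.696 ± 0.135 CPM with them (SD, n = 2). The log2 fold change was -3.28 (SE 0.25, edgeR adjusted p = 5.15e-05), and leaving out each library in turn gave -3.47 to -3.07.

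Of the 4 ligands without a call, CXCL16, CXCL12 and XCL1 had the smallest fold changes. CXCL16, a membrane-bound ligand of CXCR6, stood at 3.50, 3.26 and 3.37 CPM in control and at 4.09 and 4.42 CPM in co-culture (log2 fold change 0.33, SE 0.19, 95% interval -0.10 to 0.76, edgeR adjusted p = 0.216). CXCL12 stood at 3.19, 3.04 and 1.94 CPM in control and at 3.60 and 3.56 CPM in co-culture (log2 fold change 0.40, SE 0.26, 95% interval -0.18 to 0.98, edgeR adjusted p = 0.266). For both, the co-cultured libraries were the higher ones and the intervals include 0. XCL1 (lymphotactin) stood at 6.95, 6.68 and 7.82 CPM in control and at 7.42 and 7.25 CPM in co-culture, and its groups overlapped. Its log2 fold change was 0.04 (SE 0.16, 95% interval -0.32 to 0.39, edgeR adjusted p = 0.877). Its coding sequence shares 98.6% of the bases with that of XCL2, so its counts come from reads that could be told apart from XCL2 and may be too low.

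**Figure D3:**
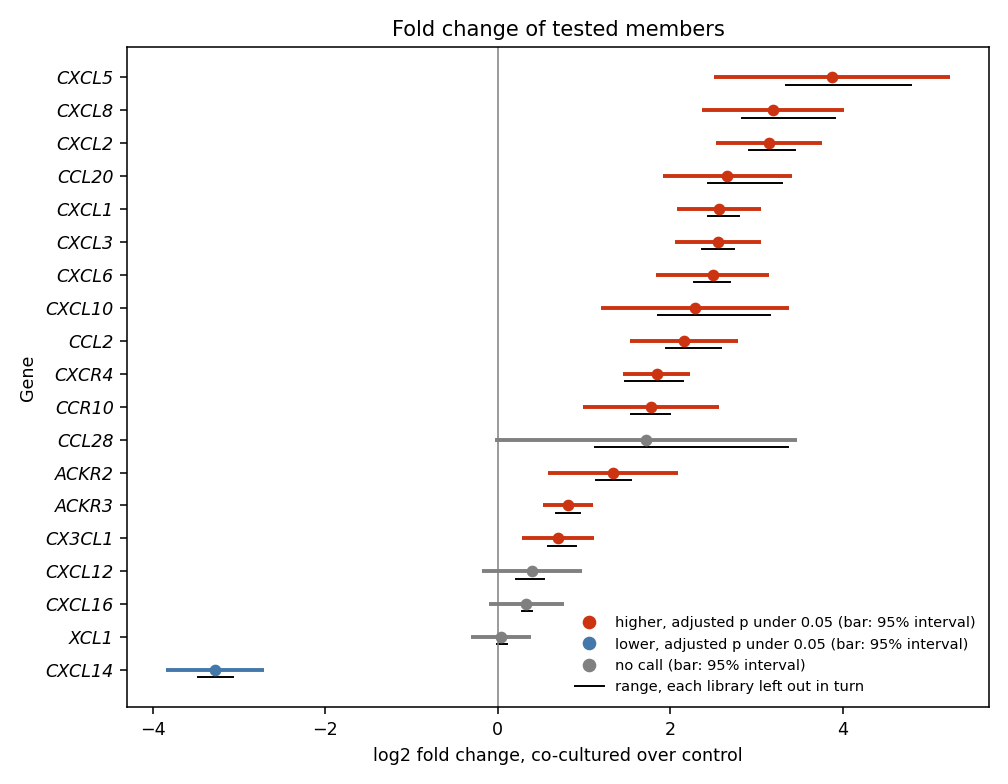
log2 fold change, co-cultured over control, of the 19 tested genes. Points are the edgeR estimates from 3 control and 2 co-cultured libraries, colored bars their 95% intervals, and thin black lines the range when each library was left out in turn. CXCL5 lies at 3.87, CXCL14 at -3.28, and the intervals of CCL28, CXCL12, CXCL16 and XCL1 include 0.

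The make-up of the ligand counts differed with these changes. CCL20 took 31.5%, 18.6% and 19.2% of all ligand counts in control and 45.3% and 44.0% in co-culture. The 6 chromosome 4 genes together took 15.0%, 13.2% and 13.3% in control and 28.3% and 30.1% in co-culture. CXCL14 took 8.42%, 14.6% and 15.1% in control and 0.325% and 0.385% in co-culture. For each of these shares the groups did not overlap, with a two-sided exact permutation p = 0.2, the smallest that 3 libraries against 2 can give. In all, 6 such shares and ratios were computed, and each had this p.

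**Figure D4:**
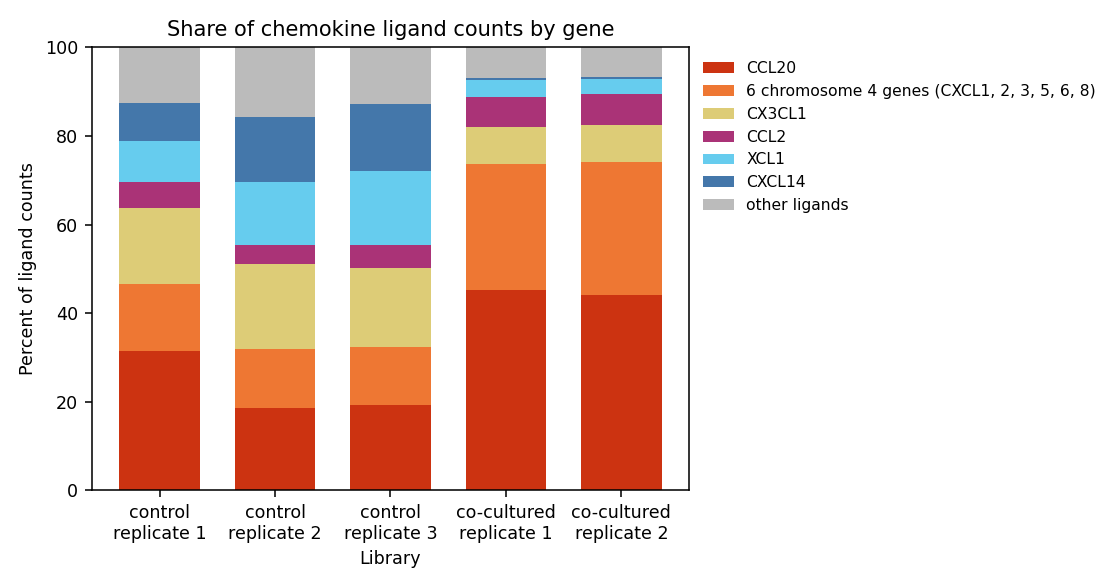
Percent of the counts on the 32 ligands that each gene or gene group took in each library (stacked bars, 3 control and 2 co-cultured libraries). CCL20 and the 6 chromosome 4 genes widen in co-culture, and CXCL14 narrows to 0.325% and 0.385%.

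The 4 tested receptors were all upregulated. CXCR4 (chromosome 2, 136114349 to 136118165, minus strand) was the most abundant gene of the 53 per length in both groups, at 16.2 CPM per kb of exon in control and 58.0 in co-culture. It stood at 32.9, 34.9 and 40.1 CPM in control and at 158.6 and 99.2 CPM in co-culture. Both co-cultured libraries lay above the controls but differed from each other by 1.60-fold. The log2 fold change was 1.84 (SE 0.17, 95% interval 1.45 to 2.23, edgeR adjusted p = 0.000128), and it was 1.47 without co-cultured replicate 1 and 2.15 without replicate 2. ACKR3 (chromosome 2, 236567787 to 236582358, plus strand), the atypical receptor that takes up CXCL12, stood at 13.7, 12.5 and 11.9 CPM in control and at 24.5 and 20.2 CPM in co-culture. The groups lay apart, and the log2 fold change was 0.82 (SE 0.13, edgeR adjusted p = 0.00157).

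CXCL12 and both of its receptors were thus read in the same cultures. Counts of ACKR3 over those of CXCR4, each per kb of exon, gave ratios of 0.411, 0.352 and 0.293 in control and 0.152 and 0.200 in co-culture. Those of CXCL12 over CXCR4 were 0.0355, 0.0319 and 0.0177 in control and 0.00831 and 0.0131 in co-culture. Both ratios were lower in every co-cultured library (two-sided exact permutation p = 0.2 each, the smallest possible).

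CCR10 and ACKR2 were read at low levels. CCR10 (chromosome 17, 42678889 to 42683917, minus strand), which binds CCL27 and CCL28, held 8, 10 and 14 control counts and 41 and 25 co-cultured counts. Its log2 fold change was 1.78 (SE 0.35, edgeR adjusted p = 0.00473), and the call was lost without co-cultured replicate 1 (adjusted p = 0.0815). The gene CNTNAP1 overlaps it on the opposite strand and AC100793.3 on the same strand. Counts made without regard to strand, which leave out reads that could come from either gene, gave a log2 fold change of 1.16. They are not the sum of both strands. Reads on the opposite strand were also higher, with 24, 27 and 25 control counts and 81 and 69 co-cultured counts. ACKR2 (chromosome 3, 42804752 to 42887974, plus strand), which scavenges inflammatory CC ligands, held 15, 18 and 11 control counts and 33 and 33 co-cultured counts. Its log2 fold change was 1.34 (SE 0.33, edgeR adjusted p = 0.0138). Its call was lost without co-cultured replicate 1 (adjusted p = 0.0692) or 2 (0.117), and with the replicate number as a block (log2 fold change 1.15, adjusted p = 0.0546). The gene overlaps KRBOX1, AC092042.3 and AC099329.2 on the same strand, so reads that could also come from any of these were not counted.

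Of the 34 untested genes, 25 had fewer than 3 counts in every library, 14 ligands and 11 receptors. The 18 listed at 0 throughout were CCL3, CCL4, CCL5, CCL7, CCL8, CCL13, CCL24, CCL26, CXCL13, CXCL17, CCR1, CCR2, CCR3, CCR9, CXCR3, CXCR6, ACKR1 and CCRL2. The others were CCL11, CCL22, CCL25, XCL2, CXCR1, CXCR2 and ACKR4. The 9 genes with 3 or more counts in some library (CXCL9, CXCL11, CCL17, CCR4, CCR6, CCR7, CCR8, CX3CR1 and CXCR5) reached at most 7. CXCL11, an interferon-induced ligand like CXCL10, held 4, 1 and 1 control counts and 6 and 6 co-cultured counts. With a filter of at least 1 count in any library, 16 of the 34 could be tested by edgeR and 0 were called. CXCR5 held 0, 0 and 0 control counts and 2 and 3 co-cultured counts, at or under the floor throughout. It was the 1 gene of these with an unadjusted p under 0.05 in edgeR's quasi-likelihood test (0.0237, edgeR adjusted p = 0.0992). The strand opposite to CXCR5, where BCL9L is annotated, had 144, 155 and 157 control counts and 238 and 157 co-cultured counts.

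The classical receptors of most tested ligands had few or no counts, CXCR4 and CCR10 being the exceptions among those read. Receptors of XCL1 and CXCL14 were not looked at. CXCR1 and CXCR2, which receive the 6 ELR ligands, had at most 2 counts in a library. CCR2, the receptor of CCL2, CXCR3, that of CXCL10, and CXCR6, that of CXCL16, were listed at 0. CCR6, the receptor of CCL20, held 2, 3 and 7 control counts and 1 and 1 co-cultured counts, and CX3CR1, that of CX3CL1, had 7, 2 and 6 in control and 1 and 1 in co-culture. CXCL12 with CXCR4 and ACKR3, CCL28 with CCR10, and CCL2 with its scavenger ACKR2 are combinations in which both sides were tested. A further 13 chemokine genes outside the 53 each had fewer than 3 counts in every library, 11 of them 0.

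Genes that carry the signal inside the cell were measured too. Of 91 genes of chemokine receptor signal transduction, 83 were tested, 39 were higher (47.0%, against 18.4% of all genes) and 5 lower (6.02%, against 15.0%), and the median log2 fold change was 0.25. Among the higher ones with the smallest p were GRK3, a kinase that desensitizes receptors, and the tyrosine kinase LYN. GRK3 had 47.0 ± 1.76 CPM without HBMECs (SD, n = 3) and 100.2 ± 0.889 CPM with them (SD, n = 2), and its log2 fold change was 1.09 (edgeR adjusted p = 4.03e-05). That of LYN was 1.82 (edgeR adjusted p = 0.000109). The lower ones with the smallest p were VAV2, an exchange factor for small GTPases (-0.53, edgeR adjusted p = 0.00135), the adenylate cyclase ADCY2 (-1.35, 0.00267) and the phospholipase PLCB2 (-1.01, 0.0200). The calls of ADCY2 without co-cultured replicate 1 (adjusted p = 0.0513), and of PLCB2 without either co-cultured library (0.103 and 0.132), without control replicate 2 (0.0631) and in DESeq2 (0.0609), were lost.

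Chemokines are held at the cell surface by heparan sulfate and trimmed by proteases. Of 42 genes of chemokine processing and presentation, 33 were tested, 14 were higher (42.4%, against 18.4% of all genes) and 5 lower (15.2%, against 15.0%), and the median log2 fold change was 0.19. SDC1, a heparan sulfate core protein (log2 fold change 1.28, edgeR adjusted p = 9.91e-05), PLAU, the urokinase (1.97, 0.000111), and HPSE, the heparanase (1.03, 0.000181), rose. SULF2, which removes sulfate groups from heparan sulfate, had 98.7 ± 16.8 CPM without HBMECs (SD, n = 3) and 31.9 ± 3.41 CPM with them (SD, n = 2), and fell with a log2 fold change of -1.63 (edgeR adjusted p = 0.000115). ADAM10, a protease that sheds CX3CL1 and CXCL16 (-0.44, edgeR adjusted p = 0.00377), and GPC4, another core protein (-1.33, 0.0142), fell. Leaving out co-cultured replicate 2 lost the call of ADAM10 (adjusted p = 0.0697), and leaving out either co-cultured library lost that of GPC4 (0.105 each).

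Markers of other cells were read beside these results. Of 22 endothelial markers, 9 had fewer than 3 counts in every library. The summed level of the 22 was 18.2 to 29.6 CPM in control and 23.9 to 24.7 CPM in co-culture. The largest parts of this sum were VWF, ICAM2 and ERG, which were read in the controls too. VWF stood at 8.44, 4.14 and 4.45 CPM in control and at 4.75 and 5.9 CPM in co-culture. ERG stood at 3.72, 3.53 and 2.81 CPM in control and at 2.84 and 2.70 CPM in co-culture. The sum is therefore no measure of HBMEC RNA. PECAM1 held 14, 10 and 3 control counts and 18 and 11 co-cultured counts, and CDH5 had 11, 8 and 4 in control and 7 and 11 in co-culture. Others were lower with HBMECs than in control replicates 1 and 2: FLT1 had 30, 28 and 0 counts against 1 and 1 (edgeR adjusted p = 0.0683), KDR 37, 27 and 2 against 12 and 4, and TEK 31, 24 and 0 against 6 and 3. Control replicate 3 stood apart from the other controls in these genes. On the opposite strand, FLT1 had 44, 17 and 6 counts against 5 and 4, and KDR 24, 20 and 0 against 0 and 1. TEK had 25, 23 and 2 there against 0 and 1. The libraries are directional, so the counts of FLT1, KDR and TEK are not shown to be transcripts of these genes. Of the 10 tested, 2 were higher, a share near the 18.4% of all genes, namely ESAM (3, 4 and 6 counts against 21 and 14, log2 fold change 2.14, edgeR adjusted p = 0.00666) and ICAM2 (0.45, 0.0367). Of 18 leukocyte markers, 7 had fewer than 3 counts in every library, and the summed level was 8.33 to 11.1 CPM in control and 17.9 to 18.8 CPM in co-culture. PTPRC, which defines leukocytes, held 1, 0 and 0 control counts and 0 and 0 co-cultured counts, and CD3D was listed at 0. CSF1R held 27, 14 and 0 control counts and 0 and 0 co-cultured counts (edgeR adjusted p = 0.0628). On the opposite strand it had 63, 58 and 38 against 31 and 23, so the same limit holds for it. Of the 6 tested, 3 were higher, beside 18.4% of all genes: the integrin genes ITGAM (log2 fold change 2.52, edgeR adjusted p = 0.000236) and ITGAX (3.02, 0.000874), and CD8A (0.81, 0.0246). ITGAX held 12, 4 and 8 control counts and 82 and 37 co-cultured counts. ITGAX and ESAM reached the filter's minimum in fewer than 2 of the control libraries, so they were tested only because they were high in co-culture. The call of ESAM was lost without co-cultured replicate 1 (edgeR adjusted p = 0.0968). That of CD8A was lost without co-cultured replicate 1 (0.0872) or 2 (0.168) or control replicate 2 (0.0686). ICAM2 was called in 3 of 12 alternatives, and DESeq2 (adjusted p = 0.0680) was among those that lost it. Of 15 neuroendocrine markers, 14 were tested, 5 were higher (35.7%, against 18.4% of all genes) and 2 lower (14.3%, against 15.0%), with a summed level of 3030 to 3610 CPM in control and 4130 CPM in co-culture. SYP (0.57, edgeR adjusted p = 0.00148) and SCG2 (0.86, 0.00192) were among the higher ones, and DLL3 (-0.35, 0.0248) and DDC (-0.58, 0.0286) were the lower ones, both without a call when either co-cultured library was left out. The part of these markers in the chemokine results was not tested.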

How the data were processed

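NCI-H209 RNA-Seq libraries, 3 control and 2 co-cultured with HBMECs, were grouped by the labels. The submitters' processing notes name CASAVA 1.8, STAR 2.6.1b, DESeq2 and GRCh38, with no role or order. The authors deposited read counts per gene of each library, not normalized and as STAR's gene counting lays them out, without strand and for each strand. Reads in the rows that name no gene (unmapped, multimapping, without a feature, ambiguous) were 66.4% to 69.3% of a library and were left out. A deposited comparison table was used only to pair gene symbols with identifiers. Its group means, log2 fold changes and p-values are the authors' and were not used. That table matched 34 of the 53 genes and GENCODE release 29 the other 19, since it lists only genes with a total of at least 2 counts.

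Counts on the strand of the directional libraries, which held 92.3% to 93.1% of gene counts, were tested with edgeR 4.0.16 in R 4.3.3 (filterByExpr, TMM, quasi-likelihood F test, Benjamini-Hochberg adjustment over 20360 genes, all 5 libraries, no covariate). The biological coefficient of variation was 10.2%. To get the standard error, the size of the log2 fold change was divided by the root of F. The filter asked for the minimum CPM in at least 2 libraries. Shares and ratios were compared with exact permutation tests (scipy 1.17.1). Steps were tested on simulated data. Alternatives were upper-quartile and median-ratio factors, DESeq2 1.42.0, other count filters, a replicate block, unstranded counts and each library left out in turn.

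The 53 genes and the further lists were chosen with earlier results of these data known. Named were all tested genes of the 53, the remaining ones by counts or name, and of each further list the 3 genes with the smallest p in each direction among those called, of which some are not reported here. Markers named for what they define were chosen after their values were seen. Promoter windows and sequences are RefSeq's on GRCh38.p14, and no window was given for ACKR1, ACKR2, ACKR3, ACKR4, CCL2, CCL4, CCL5, CCL11, CCL17, CCR7, CCR8, CCR10, CX3CL1, CXCL16 and XCL1. The short NF-kB and AP-1 motifs were added after the data were seen. Plots were drawn with matplotlib 3.10.9.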

Additional observations from a re-analysis of the deposited data

Results flagged for a closer look

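Reads on the strand opposite to a gene were not used in the comparison, and at CCR10 and CXCR5 both co-cultured libraries lay above every control library. At CCR10 they stood at 1.27, 1.49 and 1.28 CPM in control and at 4.42 and 4.55 CPM in co-culture, where CNTNAP1 is annotated on the opposite strand. At CXCR5 they stood at 7.64, 8.56 and 8.03 CPM in control and at 13.0 and 10.4 CPM in co-culture, where BCL9L is annotated on the opposite strand. The part of these neighbors in the counts of CCR10 and CXCR5 was not tested.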

How the results depend on the processing

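Of the gene values recomputed under alternatives, 444 kept their direction and their side of the threshold, 37 lost the call, 2 gained it and 2 turned direction. The 2 turns were XCL1, which was never called, at -0.042 with upper-quartile factors and between -0.0071 and 0.11 with each library left out. The count of higher chemokine and receptor genes was 14 with DESeq2, median-ratio and upper-quartile factors and unstranded counts, 15 with at least 1 count in any library and 10 with at least 10 counts in every library, which tests fewer of them. It was 10 to 15 with each library left out. Unstranded counts gave 2 lower ones, the second being CXCL17 (-1.19, edgeR adjusted p = 0.0367), whose reads lay on the opposite strand. Over all genes, 6809 were called, and 2734 to 9897 with each library left out (2734 without co-cultured replicate 1 and 3023 without replicate 2). Upper-quartile factors moved the median of all genes to -0.11 and gave 3076 higher and 3929 lower genes (43.9% higher, against 55.1% of 3750 and 3059). With a replicate block, 4824 genes and 13 higher chemokine and receptor genes were called. Deviations from the group mean correlated at -0.15 for number 1 and -0.08 for number 2. The deviations of 2 co-cultured libraries mirror each other, so these values cannot show whether the numbers pair the libraries. Besides ACKR2, the block ended no call of these genes. At these depths, fewer than 3 counts cannot show a change. The cause of these differences was not tested.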

Other observations

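Control replicate 1 had the highest CPM of the control libraries in 14 of the 19 tested chemokine and receptor genes, beside 41.7% of all genes tested. It was the highest in 10 of the 10 ligands called higher, CCL20 (23.5 CPM against 8.78 and 8.95) and CXCL8 (3.61 CPM against 1.55 and 0.920) among them, and in 1 of the 4 receptors. These are values of 1 library, and the labels name no difference between it and the other controls.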
